A study of Cricetiscus sungorus with 216 samples.

Results

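Tyrosine hydroxylase (Th), aromatic L-amino acid decarboxylase (Ddc), the dopamine transporter (Slc6a3), the vesicular monoamine transporter (Slc18a2) and histidine decarboxylase (Hdc) make, recapture and store dopamine and histamine. They were chosen by gene symbol, as 5 of the 32078 symbols in the tables of 4 tissues, and were followed in the mediobasal hypothalamus (MBH), the dorsomedial hypothalamus (DMH) and the paraventricular nucleus (PVN). All 5 had rows in the MBH and DMH tables and 4 had rows in the PVN table, where Slc6a3 was not analysed here. The tissues came from 54 male Djungarian hamsters of 3 to 8 months, bred in a long photoperiod (LP; LD in the labels) of 16 h light. A group of 6 stayed in LP and 6 hamsters each were killed after 4, 8, 12, 16, 20, 24, 28 and 32 weeks in a short photoperiod (SP; SD in the labels) of 8 h light, which the study divides into induction (4 and 8 weeks), maintenance (12 to 20 weeks) and recovery (24 to 32 weeks). The labels name no genetic change and no drug for any group, and a single LP group serves every SP week as control. Each library is nanopore cDNA from bilateral punches of 1 mm in sections of 200 µm, so fewer cells of a type and less RNA per cell cannot be told apart.

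Dopamine is made when tyrosine hydroxylase, the rate-limiting enzyme, turns tyrosine into L-DOPA and aromatic L-amino acid decarboxylase removes its carboxyl group. The vesicular transporter loads dopamine, histamine and other monoamines into vesicles, and the dopamine transporter takes released dopamine back up. Neurons of the arcuate nucleus, within the MBH, send dopamine to the pituitary gland, where it holds back prolactin. Histidine decarboxylase makes histamine, in the brain mainly in neurons of the tuberomammillary nucleus, and outside it in mast cells.

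The libraries held between 5996 and 13208361 counts in the MBH, between 149289 and 9084072 in the DMH and between 159 and 998245 in the PVN. A library of the MBH and 2 of the PVN had fewer than 10000 counts. The number of gene symbols counted in a library ranged from 903 to 15603 (median 12034) in the MBH and from 787 to 17626 (median 8074) in the DMH. All 5 members had low counts: over 54 libraries the MBH held 360 counts of Th, 292 of Slc18a2 and 26 of Slc6a3. Levels are given as CPM, counts scaled to a common library size by TMM within a table, and the counts of all isoform rows of a symbol were summed. Ddc had 5 isoform rows, and Hdc and Slc6a3 had 2 each in the MBH and DMH, and 3 of the Ddc rows held the same total of 197 counts in the MBH, so that reads may be shared between rows and the summed levels of these genes are uncertain.

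In the MBH, the summed level of 7 arcuate nucleus markers had a median of 373 CPM (53.4 to 867). In the DMH libraries, 6 markers of the dorsomedial hypothalamus summed to a median of 0.368 CPM (0 to 7.61), and 5 of them were lower there than in the MBH of the same hamsters. Of 5 markers of the tuberomammillary nucleus and lateral hypothalamus, 4 (Hcrt, Lhx9, Pmch and Prph) were higher in the DMH libraries. In the PVN table only Sim1 and Trh of 5 paraventricular nucleus markers had rows, and they summed to a median of 152 CPM. There 6 arcuate nucleus markers summed to a median of 234 CPM (0 to 987). The 5 tuberomammillary nucleus and lateral hypothalamus markers had a median of 120 CPM (0 to 2458). The defining markers of the labelled nucleus were thus near 0 in the DMH libraries, and DMH is used below as their label only. PVN is likewise used as a label, since markers of other nuclei were also abundant in its libraries.

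In the MBH no member passed the test over LP and the SP weeks. Th, the first enzyme of dopamine synthesis, had a mean of 3.28 ± 2.40 CPM in LP (SD, n = 6) and between 2.30 ± 1.71 CPM at 28 weeks and 4.48 ± 1.68 CPM at 12 weeks of SP. The LP libraries lay between 0 and 6.10 CPM with a median of 3.23. In induction the medians were 2.65 CPM after 4 weeks, with libraries between 0 and 4.71, and 2.63 CPM after 8 weeks, with libraries between 0 and 6.00. No library of induction was above the highest of LP. In maintenance the 12-week libraries had a median of 4.57 CPM, the lowest at 2.04 and the highest at 6.47. The medians after 16 and 20 weeks were 3.75 and 3.02 CPM, with highest libraries of 4.88 and 5.12 and a lowest of 0 in both. Apart from 1 library at 12 weeks, maintenance stayed within the range of LP. In recovery the medians were 4.03, 2.58 and 2.85 CPM after 24, 28 and 32 weeks, the highest libraries 8.85, 4.78 and 5.57, and the lowest 0, 0 and 1.43. Every week overlapped with LP, and 2 libraries at 24 weeks were above the highest of LP.

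The 45 Th counts of the LP group pooled to 4.28 CPM with an exact 95% Poisson interval from 3.12 to 5.72, and the 35 counts at 4 weeks to 2.68 CPM (1.86 to 3.72). The intervals overlap and cover counting error only. Over the 54 MBH libraries the squared deviations of Th counts from a constant level were 1.52 times those that counting error alone gives, and 8.60% of the variance of log2 CPM (prior count 2) lay between the 9 groups. Ordered from the highest mean, the groups ran 12, 24 and 16 weeks, LP, 32, 8, 20, 4 and 28 weeks. None of the 8 neighbouring pairs passed 0.05 (2-sided exact permutation tests of 6 against 6, smallest p = 0.673). Neighbours in this order have the closest means, so these tests cannot show whether Th changed. The 2-sided exact permutation test of 12 against 28 weeks, the highest against the lowest mean, gave p = 0.0498. That pair was picked for its difference among the 9 groups, and this p was not adjusted for the choice. For Th, edgeR's quasi-likelihood F-test across the 9 groups had an adjusted p of 1, and in maintenance Th differed from LP by 0.11 ± 0.52 on the log2 scale (SE, adjusted p = 1).

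**Figure D1:**
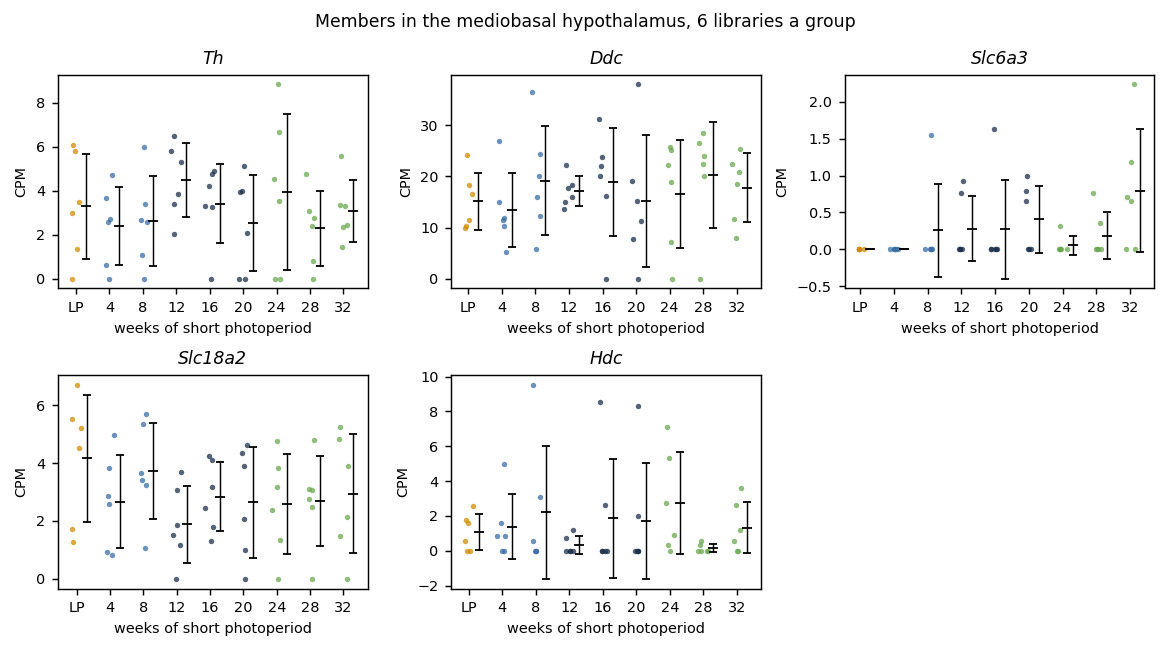
Levels of the 5 members in the MBH in CPM (vertical axes, linear) by weeks of SP (horizontal axes, LP first). Points are single libraries, 6 a group, and bars give the mean ± SD, which can reach below 0; for Th the group means lie between 2.30 and 4.48 CPM, and Slc6a3 is at 0 in every LP and 4-week library.

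Ddc, which completes dopamine synthesis and also makes serotonin, had 1680 counts over its isoform rows, in 50 of 54 MBH libraries. LP had 15.1 ± 5.62 CPM (SD, n = 6), from 9.85 to 24.2 CPM in single libraries. The lowest SP mean was 13.4 ± 7.33 CPM after 4 weeks (5.19 to 26.9, median 11.6), and the highest was 20.3 ± 10.4 CPM after 28 weeks (0 to 28.5, median 23.3). Both overlapped with LP. The group means of the other SP weeks lay between 15.2 and 19.2 CPM. In maintenance the difference from LP was 0.31 ± 0.41 on the log2 scale (SE, adjusted p = 1 by edgeR).

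Slc6a3, the dopamine transporter and a marker of dopamine neurons, was at the limit of what these libraries could detect. It had no counts in the 6 LP and 6 4-week libraries of the MBH, which allows up to 0.285 CPM over the LP group and 0.229 CPM over the 4-week group (3 counts each). The 14 libraries with a count all came from 8 weeks or later. All 14 also had counts of Th and of Ddc, but so did most MBH libraries (45 and 50 of 54). At 32 weeks 4 of 6 libraries had counts (0 to 2.24 CPM, median 0.684), and at 20 weeks 3 of 6 had them (0 to 0.989 CPM, median 0.331). Of the 8 summed counts at 32 weeks replicate 4 held 4, and of the 7 at 20 weeks replicate 6 held 4. Counted on the highest isoform only, since the rows may share reads, these groups pooled to 0.444 CPM (exact 95% Poisson interval 0.144 to 1.03) and 0.387 CPM (0.105 to 0.991), and both intervals reach below the limit of LP. The other weeks with counts had them in 1 or 2 libraries each. The groups still overlapped, since both held libraries at 0. The exact permutation test of 32 weeks against LP gave p = 0.0606. With counts in 4 of 6 libraries and none in LP, that test could not give a smaller p, so it cannot decide. Over the 9 groups its adjusted p was 0.400 by edgeR, so that Slc6a3 did not pass in the MBH.

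Slc18a2, which fills the vesicles, had its highest mean in LP. LP had 4.17 ± 2.19 CPM (SD, n = 6; 1.27 to 6.72, median 4.87). Induction had 2.67 ± 1.62 CPM after 4 weeks and 3.73 ± 1.67 CPM after 8 weeks, with libraries from 0.819 to 5.68 CPM. The lowest mean was 1.89 ± 1.33 CPM at 12 weeks (0 to 3.70, median 1.71), and the means from 16 to 32 weeks lay between 2.57 and 2.94 CPM. No library of any SP week was above the highest LP library, and in no week did the groups separate. The difference of 12 weeks from LP was -1.12 ± 0.58 on the log2 scale (SE, adjusted p = 0.995 by edgeR), with an exact permutation p of 0.0606. Over maintenance it was -0.71 ± 0.45 (adjusted p = 0.910 by edgeR), with all 3 phase values below 0.

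Hdc, the enzyme of histamine synthesis, had the largest spread beyond counting error of the 5 members in the MBH. It had 1.08 ± 1.04 CPM in LP (0 to 2.55, median 1.09) and counts in 4 of 6 libraries. The highest libraries reached 9.55 CPM after 8 weeks, 8.53 after 16, 8.32 after 20 and 7.11 after 24, while the medians of these groups were 0.267, 0, 0 and 1.81 CPM. High and empty libraries thus stood side by side in the same week, and the squared deviations were 2.43 times those of counting error over the 54 libraries. The highest mean, 2.73 ± 2.92 CPM at 24 weeks, and the lowest, 0.151 ± 0.241 CPM at 28 weeks, are neighbouring weeks. Over the 9 groups Hdc had an adjusted p of 0.971 by edgeR.

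Hdc was higher in MBH libraries with a higher summed level of the tuberomammillary nucleus and lateral hypothalamus markers, which was mostly Pmch. Across the 54 MBH libraries, Spearman's rho of Hdc with their sum (Wif1, Hcrt, Pmch, Lhx9 and Prph) was 0.53, against -0.22 with the arcuate nucleus markers and 0.26 with the neuron markers. For the neuron markers a second calculation of rho gave 0.33. That sum ranged from 0 to 290 CPM, and its group medians from 3.04 to 50.4 CPM. Scaled together with the DMH libraries, the MBH means were 15.3 CPM for Pmch and 1.01 for Hcrt. Prph, Lhx9 and Wif1 had 0.370, 0.294 and 0.0295 CPM on that scale, so the rho with the sum mostly describes Pmch. Of 7 mast cell markers, Kit and Mcpt4 alone had rows in the MBH table, and their sum (median 0.981 CPM, at most 5.37) had a rho of 0.19 with Hdc. The 3 gene symbols most like Hdc among 10326 counted in at least 36 libraries were Parpbp (rho 0.657), Hcrt (rho 0.563), which encodes the orexin peptides of the lateral hypothalamus, and Hey1 (rho 0.557). The libraries share their depth and composition, and their part in these values was not tested.

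For Th in the MBH, the most similar symbols among 10325 were Prkcsh (rho 0.727), Pdlim5 (rho 0.646) and Necab1 (rho 0.643). The rho of Th was 0.61 with the number of gene symbols counted in a library, 0.39 with the library total and 0.31 with the arcuate nucleus markers, over 54 libraries. For Ddc and Slc18a2 the rho with the number of gene symbols was 0.07 and 0.15. The part of library composition in the Th levels was not tested.

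Across the MBH comparisons, 0 of 5 members passed over the 9 groups, beside 0.442% of the 20156 symbols tested (89; FDR below 0.1, edgeR). At an unadjusted p below 0.05, Slc6a3 alone of the members was reached, beside 8.01% of all symbols, and DESeq2 called none of the 4 members for which it gave an adjusted p. In the comparisons of single weeks with LP, 0 of 40 were called (background 0.00930%), with 3 at an unadjusted p below 0.05, all of Slc6a3, beside 4.56% of all comparisons. In the 3 phases 0 of 15 were called (background 0.139%). No exact permutation test of a week against LP passed 0.05 in any tissue, over 112 tests. Some of these could not pass whatever the level. For Slc6a3 in the DMH and Hdc in the PVN, the groups compared had counts in a single library or in none.

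In the DMH libraries the members were counted less often, and 23 of 54 libraries had no count of any of the 5. Those 23 libraries counted 787 to 8492 gene symbols (median 3432) from totals between 149289 and 4506788 counts, while the 31 libraries with a member counted 2291 to 17626 symbols (median 10762) from totals between 432917 and 9084072. The totals overlapped widely, with a higher median in the libraries with a member. Spearman's rho with the number of gene symbols was 0.63 for Th, 0.74 for Ddc, 0.68 for Slc18a2 and 0.46 for Hdc over 54 libraries, and the part of composition in the levels was not tested.

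**Figure D2:**
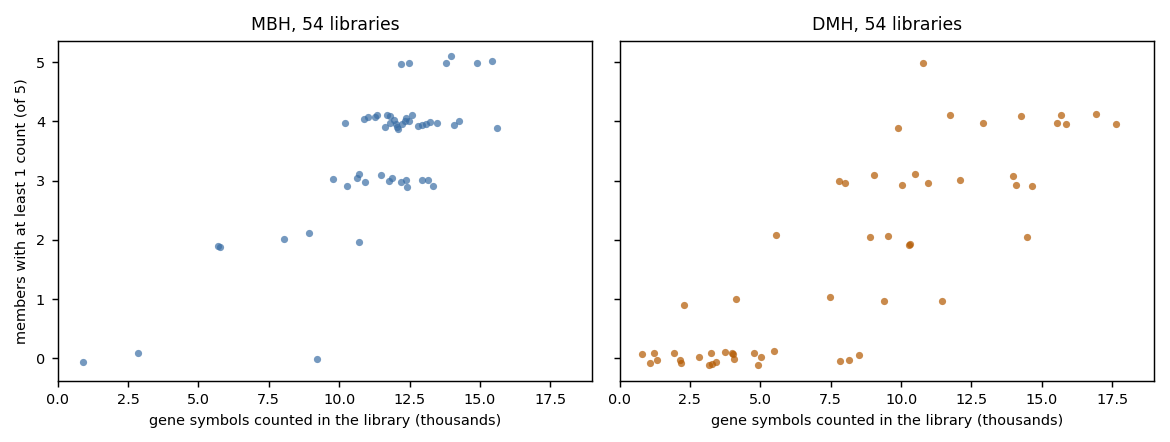
Number of the 5 members with at least 1 count (vertical axis, points spread slightly) against the number of gene symbols counted in a library (horizontal axis), for 54 MBH and 54 DMH libraries. In the DMH 23 libraries lie at 0 members, none above 8492 symbols; in the MBH 3 do.

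Th in the DMH had 0.416 ± 0.449 CPM in LP (0 to 1.02, median 0.310) and its highest mean at 8 weeks, 2.09 ± 2.73 CPM (0 to 6.96, median 0.777; SD, n = 6 each). At 8 weeks replicate 4 had 6.96 CPM from 22 counts and replicate 3 had 3.68 CPM from 1 count, and the other 4 were below 1. Its difference from LP was 1.83 ± 0.84 on the log2 scale (SE, adjusted p = 0.503 by edgeR), with an exact permutation p of 0.193, and it was 0.81 without replicate 4. The lowest mean was 0.174 ± 0.270 CPM at 16 weeks. Ddc followed with 0.499 ± 0.732 CPM in LP (0 to 1.45, median 0.0543) and 2.27 ± 2.42 at 8 weeks (0 to 5.41, median 1.65), a difference of 1.92 ± 0.92 (adjusted p = 0.555 by edgeR) that was 1.22 without replicate 1 and 1.17 on the highest isoform. All 26 DMH libraries with Ddc counts also had Th counts, which 30 of the 54 DMH libraries had.

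Slc6a3 was counted in 2 DMH libraries, with 7 counts in replicate 4 of 8 weeks (2.22 CPM) and 2 counts in replicate 3 of 28 weeks (0.136 CPM). It passed the test over the 9 groups in the DMH (adjusted p = 0.0751 by edgeR), as the only member to pass in any tissue. This was 1 of 5 members, beside 4.62% of the 21821 symbols tested, and 14.7% of all symbols had p below 0.05. On the highest isoform the 8-week group pooled to 0.317 CPM (exact 95% Poisson interval 0.103 to 0.740) from 5 counts, all in replicate 4, while LP had no counts, which allows up to 0.0933 CPM. The call was lost without replicate 4 (adjusted p = 1), with DESeq2 (adjusted p = 1), with the edgeR 4 method (adjusted p = 0.963) and without libraries under 5000 gene symbols (adjusted p = 0.931). With each replicate left out in turn the adjusted p lay between 0.0755 and 1 by edgeR, and the call held only without replicate 5. Exact permutation of 8 weeks against LP gave p = 1. With counts in a single library this test gives that p whatever the level, so it cannot decide. The MBH libraries of the same 2 hamsters also held Slc6a3 counts (1.55 and 0.771 CPM).

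Slc18a2 was counted in 17 DMH libraries and Hdc in 13. Slc18a2 had 0.158 ± 0.272 CPM in LP (0 to 0.660, median 0) and its highest mean at 12 weeks, 0.634 ± 1.23 CPM (0 to 3.12, median 0.0855), a difference of 2.10 ± 0.92 on the log2 scale (SE, adjusted p = 0.611 by edgeR). Replicate 1 had 3.12 CPM, the other 5 were at or below 0.510 CPM, and without replicate 1 the difference was 0.18. Hdc had 0.0962 ± 0.149 CPM in LP (0 to 0.290, median 0), and its group means in SP lay between 0 at 32 weeks and 0.286 CPM at 4 weeks, the latter with 1.64 CPM in replicate 6. Of the 40 comparisons of a week with LP 0 were called in the DMH (background 0.00401%) with 4 at an unadjusted p below 0.05, beside 6.85% of all comparisons, and 0 of 15 in the phases (background 0.620%). The median log2 difference of all symbols from LP was -0.17, -0.26 and -0.26 in the 3 phases of the DMH, so that a value near these is a difference shared with most symbols.

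In the PVN, whose table has other isoforms and was scaled by itself, Th had 46.6 ± 44.5 CPM in LP (0 to 123) and the widest spread of the 9 groups. The SP means lay between 25.6 ± 15.9 CPM at 20 weeks (0 to 47.7, median 26.9) and 50.6 ± 34.2 CPM at 24 weeks (13.2 to 90.8, median 50.8). The lowest LP value, 0, came from replicate 1, a library of 159 counts, and the other 5 LP libraries lay between 13.8 and 123 CPM. No SP library was above the highest of LP. In maintenance Th differed from LP by -0.86 ± 0.44 on the log2 scale (SE, adjusted p = 1 by edgeR), and at 20 weeks by -1.18 ± 0.53 (adjusted p = 1). Without replicate 2 these were -0.45 and -0.68, and without the libraries under 10000 counts -0.87 and -1.20.

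Ddc in the PVN had 24.6 ± 17.1 CPM in LP (0 to 44.2, median 25.4), with the 0 from the library of 159 counts. Its highest mean was 35.7 ± 19.3 CPM after 12 weeks, with a median of 33.5 and a highest library of 60.5 CPM. Its lowest, 12.2 ± 14.8 CPM (0 to 33.2, median 6.70), followed after 16 weeks, and both overlapped with LP. The 3 libraries at 0 after 16 weeks were the shallowest of that group, with 35275, 22217 and 5158 counts. Pooled over the libraries, Ddc had 25.7 CPM after 16 weeks and 26.6 CPM in LP. The part of depth in the low mean was not tested. Slc18a2 was counted in 23 of 54 PVN libraries, with 4.51 ± 5.37 CPM in LP and group means in SP from 1.74 to 4.95 CPM. Hdc had 4 counts in 3 of 54 libraries, 1 library each at 4, 20 and 24 weeks. Of the 4 members 0 passed over the 9 groups (background 0.0158%, 3 of 18960 symbols), 0 of 32 in the single weeks (background 0%) and 0 of 12 in the phases (background 0.00703%). At an unadjusted p below 0.05 there was 1 of 32, Th at 20 weeks, beside 3.67% of all comparisons.

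**Figure D3:**
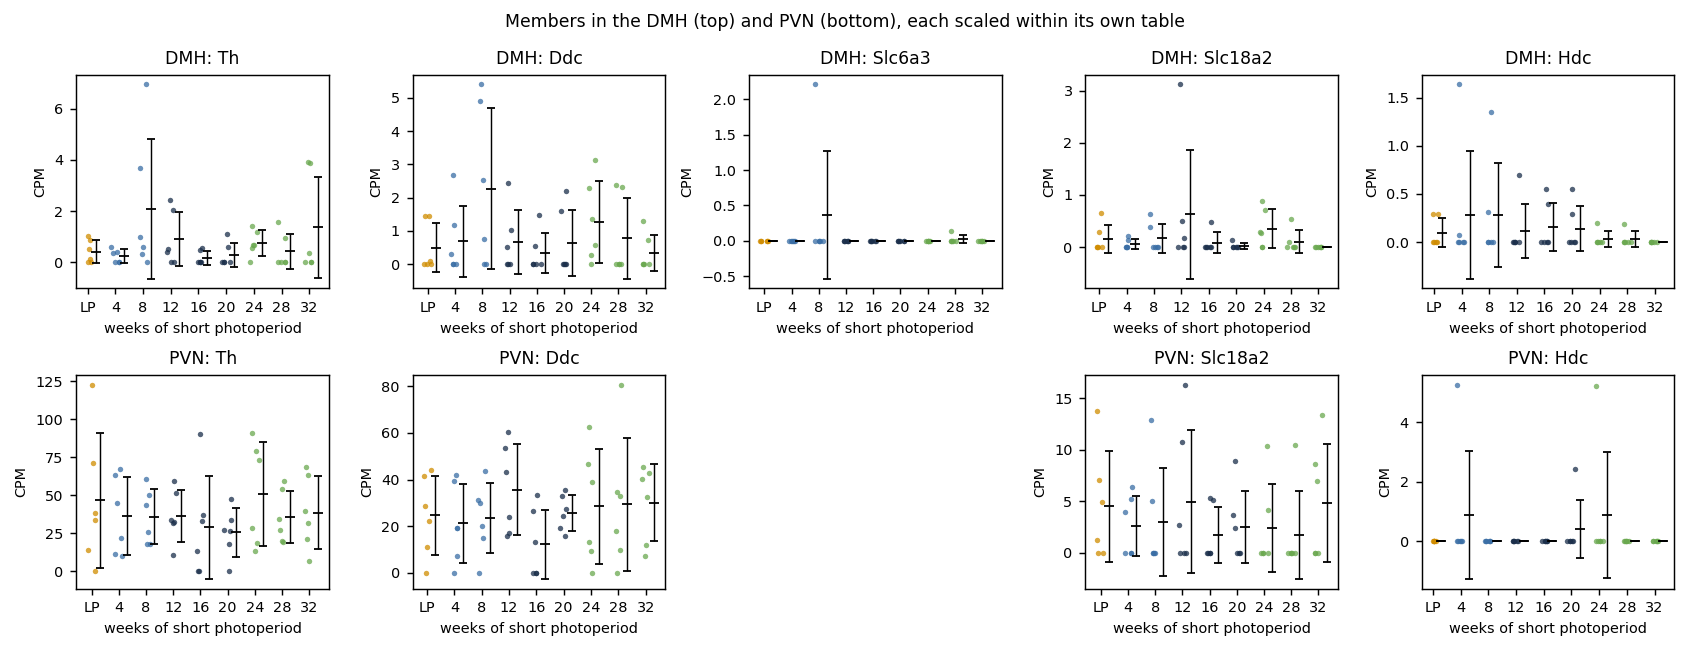
Levels of the members in the DMH (top) and in the PVN (bottom, without Slc6a3) in CPM, linear axes, by weeks of SP; points are libraries, 6 a group, with the mean ± SD. Levels are not comparable between the rows, since the tables were scaled separately; in the DMH single libraries stand high, such as 6.96 CPM of Th at 8 weeks.

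The MBH and DMH of the same hamster were compared on the isoforms that both tables share, with TMM over all 108 libraries and the hamster as a block, which gives other CPM than the separate tables. Ddc and Slc18a2 were higher in the MBH, while Th and Hdc did not pass. Ddc had 7.53 ± 3.81 CPM in the MBH and 2.18 ± 3.32 in the DMH (SD, n = 54 hamsters) and was higher in the MBH in 46 of 54 hamsters, a difference of 1.91 ± 0.28 on the log2 scale (SE, adjusted p = 1.94e-07 by edgeR). Slc18a2 had 1.28 ± 0.751 CPM in the MBH and 0.453 ± 1.16 in the DMH and was higher in the MBH in 43 of 54, a difference of 1.46 ± 0.31 (adjusted p = 0.000748). These 2 of 5 members stand beside 39.2% of the 17693 symbols called higher in the MBH, so that their share is near that of all symbols. The median of all symbols was 0.56 toward the MBH, and relative to it Ddc stood at 1.35 and Slc18a2 at 0.90. On the highest isoform Ddc differed by 1.24.

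Th had 1.38 ± 0.932 CPM in the MBH and 1.77 ± 2.96 in the DMH on this scale, a difference of -0.13 ± 0.29 (adjusted p = 0.793 by edgeR). It was higher in the MBH in 31 hamsters, higher in the DMH in 19 and at 0 in both in 4. With DESeq2 size factors the difference turned to 0.11, with the median of all symbols at 0.79. Relative to that median Th stood at -0.68 with DESeq2 size factors and at -0.69 in the main fit, a value that was not tested. Hdc differed by 0.10 ± 0.55 (adjusted p = 0.932) and Slc6a3 by 0.66 ± 0.50 (adjusted p = 0.908). Relative to the median of all symbols Hdc stood at -0.46 and Slc6a3 at 0.11. Hdc turned to -0.38 in the 33 hamsters whose MBH and DMH libraries each counted at least 5000 gene symbols, and in these Ddc (1.54, adjusted p = 0.000465) and Slc18a2 (1.34, adjusted p = 0.0115) were again higher in the MBH, beside 16.6% of all symbols. No difference between the tissues in the change over the 9 groups was detected for any of 5 members (tissue by group F-test of edgeR, all adjusted p = 1, smallest unadjusted p = 0.562), beside 0.667% of all symbols.

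**Figure D4:**
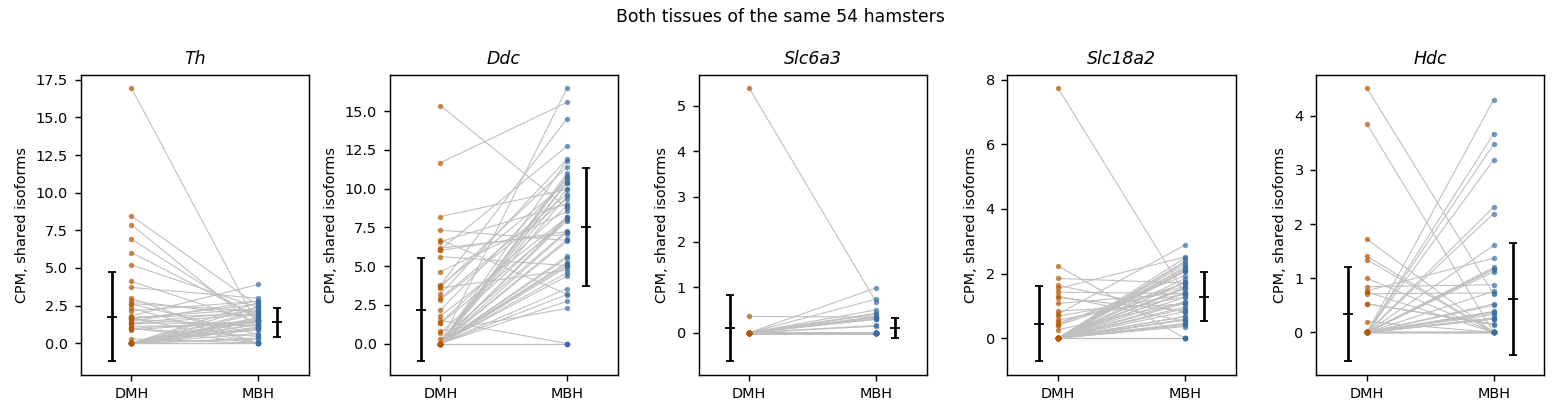
CPM of the shared isoforms of each member in the DMH and MBH of the same 54 hamsters (linear axes; grey lines join the libraries of a hamster; bars are mean ± SD). Most lines rise toward the MBH for Ddc (46 of 54) and Slc18a2 (43 of 54), and lines of Th run both ways (31 and 19).

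Prl, the prolactin gene of the pituitary gland, changed strongly over the same hamsters. LP had 12471 ± 3742 CPM (SD, n = 6; 7122 to 15966). After 4 weeks it had fallen to 2203 ± 850 CPM and after 8 weeks to 419 ± 133 CPM (298 to 664). All 6 libraries at 4, 8, 12, 16 and 20 weeks were below the lowest LP library (exact permutation p = 0.00216 each, the smallest possible). At 24 weeks it was 5830 ± 2468 CPM with 4 of 6 libraries below LP, and at 32 weeks 10828 ± 3041 CPM. In maintenance the difference of Prl from LP was -3.91 ± 0.27 on the log2 scale (SE, adjusted p = 1.22e-19 by edgeR).

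The RNA level of Th in the MBH had no detectable relation to Prl of the same hamster. Th was counted in 45 of 54 MBH libraries, with at most 27 counts in a library, so a relation could go undetected. Over 54 hamsters Pearson's r of log2 CPM was -0.08 (permutation p = 0.581) and Spearman's rho -0.11 (p = 0.444), with Benjamini-Hochberg adjusted p of 0.617 and 0.539 over 17 relations. Without the 2 hamsters farthest from the median of Th, r was -0.11 (permutation p = 0.457). Within groups, after subtracting group means, r was -0.09 (permutation p = 0.560). Adjusted for the depth and the number of gene symbols of each library, r was -0.15 (permutation p = 0.282).

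**Figure D5:**
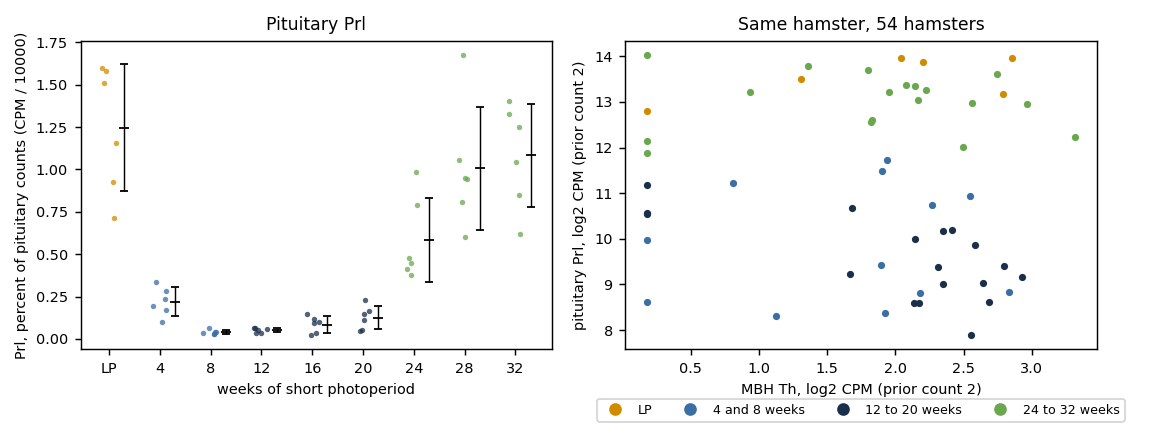
Left, Prl in the pituitary gland as percent of counts (CPM divided by 10000, linear axis) by weeks of SP, with mean ± SD of 6 libraries. Right, MBH Th against pituitary Prl of the same hamster, both log2 CPM with a prior count of 2, coloured by phase; Prl falls from LP to 8 weeks while the Th levels of the phases overlap, and r is -0.08 over 54 hamsters.

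The members were also compared with each other across hamsters, in 16 further relations, since Slc6a3 had no row in the PVN table. Th went with Ddc, the next enzyme, in all 3 tissues. In the DMH r was 0.59 (permutation p = 1e-05, the smallest that 100000 permutations give; rho 0.73), in the PVN 0.51 (p = 7e-05; rho 0.50) and in the MBH 0.50 (p = 0.00019), all with adjusted p below 0.05 and with like values within groups. In the MBH the rank correlation was weaker (rho 0.23, p = 0.0908, adjusted 0.129), and r fell to 0.22 (p = 0.105) after adjustment for depth and gene symbols counted. With that adjustment r was 0.44 in the DMH (permutation p = 0.0008, adjusted 0.0136) and 0.40 in the PVN (p = 0.00285, adjusted 0.0242).

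Th went with Slc18a2 in the DMH (r = 0.48, p = 0.00071, adjusted 0.00302; rho 0.57) and in the PVN (r = 0.34, p = 0.0114, adjusted 0.0322; rho 0.34), while in the MBH r was 0.19 (p = 0.167; rho 0.08), a difference between tissues that was not tested. In the DMH Th went with Slc6a3 (r = 0.44, adjusted p = 0.00751, and rho 0.33), with Slc6a3 counts in 2 libraries only. Without the 2 hamsters farthest from the median of Th, r was 0.21 (permutation p = 0.0974) and rho 0.30 (permutation p = 0.0314). The value of r thus depended on those hamsters, while rho changed little. In the MBH Th and Slc6a3 had r = 0.23 (p = 0.0897; rho 0.28). Hdc and Slc18a2 had r = 0.13 in the MBH (p = 0.369), 0.31 in the DMH (p = 0.0315, adjusted 0.0669; rho 0.50, adjusted p = 0.00068, so that it passed by rank) and 0.21 in the PVN (p = 0.0793). Between the MBH and DMH of a hamster, r was 0.21 for Th (permutation p = 0.125), 0.25 for Ddc (p = 0.0608), 0.37 for Slc6a3 (p = 0.0247, adjusted 0.0599), 0.02 for Slc18a2 and -0.13 for Hdc, and none passed after adjustment. In all, Pearson's r passed at an adjusted p below 0.05 in 6 of 17 relations, and 2 of 17 after adjustment for depth and gene symbols counted.

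The other genes of the pathway gave no call over the photoperiod either. They were 29 genes in 5 lists, for the tetrahydrobiopterin cofactor of tyrosine hydroxylase, the conversion and breakdown of catecholamines, dopamine receptors, histamine breakdown and receptors, and other monoamine synthesis and transport. Of the 26 with rows in the MBH, 24 in the DMH and 23 in the PVN, 0 passed over the 9 groups by edgeR, beside 0.442%, 4.62% and 0.0158% of all symbols, and 0 passed in any week or phase. At an unadjusted p below 0.05 there were 2 in each tissue, beside 8.01%, 14.7% and 6.15% of all symbols. In the MBH the abundant ones were Pts (27.2 ± 18.3 CPM) and Qdpr (27.1 ± 8.23 CPM, SD, n = 54), which make and restore the cofactor, and Aldh2 (20.2 ± 5.90), which acts in breakdown. Hnmt, which inactivates histamine, had 14.3 ± 7.25 CPM, and Hrh3, the histamine receptor found on histamine neurons themselves, 10.2 ± 6.13 CPM. The dopamine receptors Drd2 (0.564 ± 1.03) and Drd1 (0.543 ± 0.953) were each counted in 19 of 54 libraries. The transporter Slc29a4 had 3.15 ± 3.00 CPM, and Tph2, the brain enzyme of serotonin synthesis, 0.195 ± 0.323.

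In maintenance the median log2 difference from LP was -0.05 for the cofactor genes, -0.12 for conversion and breakdown, 0.46 for dopamine receptors, 0.16 for histamine breakdown and receptors and 0.00 for the others in the MBH, beside 0.00 over all symbols. The smallest adjusted p was 0.326 by edgeR, for Drd2 in recovery, which had no counts in LP. In the DMH the highest of each list were Qdpr (5.46 ± 3.23 CPM) and Pcbd1 (3.19 ± 2.05), Aldh2 (1.79 ± 1.86), Hnmt (1.77 ± 2.03) and Hrh3 (0.990 ± 1.58), Drd2 (0.188 ± 0.380) and Drd5 (0.0614 ± 0.378), and Slc29a4 (0.312 ± 0.874) and Slc18a1 (0.0116 ± 0.0742). In the PVN they were Qdpr at 153 CPM and Pcbd1 at 107 CPM, Aldh2 (72.9 ± 34.3) and Maob, Drd1 (2.17 ± 4.90) and Drd2 (1.45 ± 4.17), Hrh3 (3.65 ± 4.55) and Hrh1 (3.17 ± 5.63), and Slc29a4 (3.89 ± 6.75) and Tph2 (2.88 ± 5.86).

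Between the MBH and DMH of the same hamsters, 7 of the 24 pathway genes tested were higher in the MBH and 1 in the DMH. Pts was the only cofactor gene of 6 that differed (1.15 ± 0.38 on the log2 scale, SE, adjusted p = 0.0139 by edgeR). Of the breakdown genes, Maob (1.34 ± 0.29, adjusted p = 0.000251 by edgeR) and Aldh2 (0.96 ± 0.23, adjusted p = 0.000834) were higher in the MBH. The histamine receptors Hrh3 (1.04 ± 0.33, adjusted p = 0.00898) and Hrh1 (2.90 ± 0.47, adjusted p = 2.43e-06) were higher in the MBH, as was Slc29a4 (1.26 ± 0.45, adjusted p = 0.0208). Drd2 was higher in the DMH (-1.19 ± 0.47, adjusted p = 0.0441 by edgeR), although it was higher in the DMH in 16 hamsters, higher in the MBH in 15 and equal in 23. It was the only one of the 4 dopamine receptors tested that passed. These counts stand beside the 39.2% of all symbols called higher in the MBH and the 488 of 17693 called higher in the DMH.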

How the data were processed

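The mediobasal hypothalamus, dorsomedial hypothalamus, paraventricular nucleus and pituitary gland of 54 hamsters were sequenced as nanopore cDNA (216 libraries). The authors filtered reads with Filtlong (longer than 25 bases, quality above 9), used Minimap2 for alignment against mouse, Salmon for the estimates per isoform and EdgeR to remove low counts. Expected counts per isoform were deposited without normalization, in a table per tissue. The methods name the mouse genome for all tissues, but the PVN table shares 0 isoform identifiers with the MBH table, so that its annotation remains unclear. Low-count removal by the authors can leave out rows of rare genes.

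Counts of all isoform rows of a gene symbol were summed and rounded. Groups were taken from the labels. Each table was fitted whole with edgeR 4.0.16 (R 4.3.3; TMM, quasi-likelihood F-test in its edgeR 3 form, Benjamini-Hochberg FDR below 0.1), with no filter and no block: all 9 groups, each SP week against LP, and 3 phases against LP. Unadjusted p below 0.05 are counted from the same fits. MBH and DMH of a hamster were compared in a fit with the hamster as block, whose dispersion trend was estimated on every 6th symbol in order of mean level and interpolated. Single values were tested by 2-sided exact permutation over the 924 splits of 6 against 6, and relations on log2 CPM (prior count 2) with 100000 permutations. Scripts were tested on simulated data. Python 3.11.15 and SciPy 1.17.1 were used. P-values measure the spread between libraries, each from a different hamster within a tissue, so that differences between hamsters and between libraries are not separated.

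Alternatives were DESeq2 1.42.0 and its size factors, the current edgeR method, filterByExpr, the highest isoform only, leaving out each replicate or libraries under 10000 counts, and the replicate number as block. Between MBH and DMH, the 9 groups in place of the hamster as block were a further alternative. Leaving out libraries under 5000 gene symbols and adjusting relations for depth and gene symbols counted were chosen after seeing the data. The members, gene lists and tests were chosen with earlier results of these data known. Named are all members, the 2 genes of highest mean in each pathway list and tissue, those that passed, and the 3 symbols most like Th and Hdc; 1 pathway gene that the rule names is not reported here. Same-numbered libraries of different groups come from different hamsters, so the number was used to pair the tissues of a hamster and, as an alternative only, as a block across groups.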

Additional observations from a re-analysis of the deposited data

Results flagged for a closer look

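In 23 of 109 groups of 6 libraries, the highest or lowest library of a member stood apart from the other 5 by Dixon's criterion, which chance meets in about 1 of 20 groups; groups where most libraries are at 0 meet it with any single count.

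In the MBH, 3 libraries were flagged as low. Replicate 2 of 16 weeks had 0 CPM of Th and 0 CPM of Ddc, where the other 5 had medians of 4.21 and 22.1 CPM, from 493708 counts and 8057 gene symbols. Replicate 1 of 24 weeks had 0 CPM of Ddc (other 5: median 22.3) from 71577 counts. Replicate 2 of 28 weeks had 0 CPM of Ddc (other 5: median 24.1) and 0 CPM of Slc18a2 (other 5: median 3.08) from 1485855 counts and 9220 gene symbols. The part of library composition in these zeros was not tested.

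For Slc6a3 the flagged libraries were the highest ones, with 1.55 CPM in MBH replicate 4 of 8 weeks, 1.64 CPM in MBH replicate 4 of 16 weeks and 0.318 CPM in MBH replicate 2 of 24 weeks. In the DMH they were 2.22 CPM in replicate 4 of 8 weeks and 0.136 CPM in replicate 3 of 28 weeks. The other 5 libraries of each of these groups had 0.

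DMH Slc18a2 was flagged at 3.12 CPM in replicate 1 of 12 weeks, 0.490 CPM in replicate 3 of 16 weeks, 0.146 CPM in replicate 6 of 20 weeks and 0.543 CPM in replicate 3 of 28 weeks. DMH Hdc was flagged at 1.64 CPM in replicate 6 of 4 weeks, 1.35 CPM in replicate 1 of 8 weeks and 0.693 CPM in replicate 1 of 12 weeks. It was also flagged at 0.202 CPM in replicate 2 of 24 weeks and at 0.192 CPM in replicate 6 of 28 weeks. In the PVN, Slc18a2 was flagged at 10.4 CPM in replicate 1 of 28 weeks, and Hdc at 5.27 CPM in replicate 2 of 4 weeks, 2.42 CPM in replicate 1 of 20 weeks and 5.20 CPM in replicate 6 of 24 weeks.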

How the results depend on the processing

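Over 59 results and 507 comparisons with an alternative, 464 kept their direction and their side of the threshold. The number of members called in single weeks and phases was 0 in each tissue under every alternative run, although filterByExpr left most members untested, as given below. The number called over the 9 groups of the DMH, 1, was 0 with DESeq2 size factors, filterByExpr (which removed Slc6a3), the current edgeR method, the highest isoform, DESeq2 and without libraries under 5000 gene symbols, and between 0 and 1 when each replicate was left out (1 only without replicate 5).

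With the replicate block that number was also 0. Libraries of different groups with the same number come from different hamsters. Their deviations correlated at a mean of 0.055 in the MBH, 0.067 in the DMH and 0.043 in the PVN (lowest pair -0.19, -0.58 and -0.18), against -0.007, 0.000 and -0.007 for other numbers. Of 54 libraries 28, 15 and 19 correlated best with their own number, a hint from the data and not from the design. MBH Hdc in maintenance (0.01 on the log2 scale) was -0.15 with the replicate block, -0.01 with DESeq2 size factors, -0.04 with the current edgeR method, -0.17 with the highest isoform, and -0.77 to 0.58 when each replicate was left out. MBH Th in maintenance was -0.16 to 0.49 when each replicate was left out, below 0 without replicate 1.

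Between MBH and DMH, Th turned to 0.11 with DESeq2 size factors, where it stood at -0.68 relative to the median of all symbols. Slc6a3 turned to -0.02 with the 9 groups in place of the hamster as block. Hdc turned to -0.26 with the highest isoform and to -0.38 without libraries under 5000 gene symbols. Of all symbols, 6940 were called higher in the MBH (93.4% of calls), against 4320 (82.1%) with the highest isoform, 2934 with filterByExpr and 2944 (83.0%) without libraries under 5000 gene symbols. The cause was not tested.

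Adjusted for depth and gene symbols counted, r was 0.22 for MBH Th and Ddc, -0.06 for MBH Th and Slc18a2, 0.39 for DMH Th and Slc6a3, 0.32 for DMH Th and Slc18a2, 0.33 for PVN Th and Slc18a2 and -0.12 for Slc18a2 between the tissues. With group means subtracted, r was 0.39 for DMH Th and Slc6a3, which no longer passed, and 0.37 for DMH Hdc and Slc18a2, which then passed. At this depth filterByExpr removed Slc6a3, Slc18a2 and Hdc in the MBH, so that it gave no value for them. It also removed all members but Ddc in the DMH and in the fit of both tissues, and all but Th in the PVN. DESeq2 gave no adjusted p for MBH Slc6a3, PVN Slc18a2 and PVN Hdc.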

Other observations

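In the DMH, the symbols most like Th across 54 libraries, among 3830 compared, were Cops7a (rho 0.797), Pea15a (rho 0.795) and Actg1 (rho 0.789), and those most like Hdc were Yipf2 (rho 0.636), Marcksl1 (rho 0.626) and Manbal (rho 0.595). These libraries share depth and composition, and the values are a description.

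In the PVN, Th went with the summed markers of the tuberomammillary nucleus and lateral hypothalamus (rho 0.59) and of the arcuate nucleus (rho 0.54), against 0.02 with the 2 paraventricular nucleus markers in the table, over 54 libraries. All 23 PVN libraries with Slc18a2 counts also had counts of Th and of Ddc, but so did most PVN libraries (50 and 46 of 54).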
